A study of Mus musculus with 12 samples.

Results

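Semaphorins, ephrins, slits, netrins and their receptors were measured in mouse aortic smooth muscle cells (SMCs) with and without the TGF-β receptors. All genes whose symbol names a class 3 to 7 semaphorin, a plexin, a neuropilin, an ephrin, an Eph receptor, a slit, a Robo receptor, a netrin, an Unc5 receptor or Dcc were taken, 71 of 52636 genes in the count table. They comprised 20 semaphorins, 14 plexins and neuropilins, 8 ephrins, 14 Eph receptors, 7 slits and Robo receptors and 8 netrins and netrin receptors. Among them 68 were protein coding and 3 were antisense RNAs of the *Plxna4* locus, which are counted among the 14 plexins and neuropilins. *Ntn3* was not analysed here.

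These families were first known for steering growing axons. Secreted class 3 semaphorins bind a neuropilin that pairs with a plexin, and most other semaphorins bind plexins directly. Ephrins are held on the cell surface and signal to Eph receptors on neighbouring cells. Slits bind Robo receptors, and netrins bind Dcc and Unc5 receptors. In blood vessels the same molecules act in sprouting, in the arterial or venous identity of vessels and in the movement and adhesion of mural cells, the class to which SMCs belong.

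RNA was sequenced from GFP+ SMCs of 6 male C57BL/6J mice of 12 weeks of age. The 3 GFPiSMC mice carried Myh11-CreERT2, a tamoxifen-activated Cre on the Y chromosome that is active in SMCs, and the mT/mG reporter. The 3 Tgfbr1/2iSMCKO mice carried both of these and floxed *Tgfbr1* and *Tgfbr2*. Both genotypes received tamoxifen for 5 days at 2 mg/d from 11 weeks of age, the schedule of the adult induction, and the labels also list 1 mg/d from 4 weeks. From each mouse the ascending aorta with the arch and the descending thoracic aorta were digested and sorted separately, which gave 12 libraries in 4 groups of 3. GFPiSMC mice had no floxed receptor and line and deletion cannot be told apart. GFP marks cells in which Cre was active, in either line.

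The libraries held 20467027 to 31392396 counts from 9208 to 20000 sorted cells, and the guidance genes took 0.177% to 0.225% of them. The 4 libraries of at most 12000 sorted cells were GFPiSMC descending 1 and 2 and both libraries of Tgfbr1/2iSMCKO animal 3. Gene counts of *Tgfbr1* and *Tgfbr2* sum over all exons, include those outside the floxed part and are no check of the deletion. *Tgfbr1* ranged from 196 to 292 CPM (counts as a share of the scaled library total) in GFPiSMC and from 198 to 295 CPM in Tgfbr1/2iSMCKO libraries, and *Tgfbr2* from 88.9 to 128 CPM and from 68.2 to 102 CPM. The 7 SMC markers summed to 33652 to 47595 CPM. Summed markers of leukocytes (5.61 to 17.8 CPM), Schwann cells and neurons (3.30 to 7.43 CPM), mesothelium (1.22 to 4.18 CPM) and adipocytes (0.575 to 2.44 CPM) were low in every library. Of 7 endothelial markers, *Cdh5* was at 0 to 2.71 CPM, *Emcn* at 0 to 1.75 CPM and *Tie1* at 0.129 to 1.49 CPM. The others were higher, with *Tek* at 0.105 to 4.55 CPM, *Vwf* at 1.53 to 12.7 CPM, *Erg* at 5.99 to 21.7 CPM and *Pecam1* at 44.4 to 95.7 CPM. The 7 fibroblast markers summed to 84.9 to 245 CPM in ascending/arch and to 19.3 to 74.2 CPM in descending libraries, without overlap. Of 4 cardiomyocyte markers *Ryr2* (27.9 to 76.1 CPM) and *Tnnt2* (5.98 to 105 CPM) were the main ones and *Myh6* stayed at or below 2.09 CPM, and 9 dissociation response genes summed to 228 to 1439 CPM.

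The 3 members below with a difference between groups and a promoter in RefSeq are shown first, 250 bases before to 50 bases after the start, 5′ to 3′ in the direction of the gene (GRCm38.p6). *Sema3d* is on chr5:12382916-12383215 (plus strand), *Plxnc1* on chr10:94944796-94945095 (minus strand) and *Robo1* on chr16:72662899-72663198 (plus strand). The *Robo1* start lies inside the gene as annotated by GENCODE, from 72308306 to 73046095. The *Sema3d* stretch ends before the start of the gene in GENCODE, at 12383385. Capitals mark matches on either strand to the Smad element CAGAC, the TEAD element GGAATG and the CArG box bound by serum response factor.

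Sema3d: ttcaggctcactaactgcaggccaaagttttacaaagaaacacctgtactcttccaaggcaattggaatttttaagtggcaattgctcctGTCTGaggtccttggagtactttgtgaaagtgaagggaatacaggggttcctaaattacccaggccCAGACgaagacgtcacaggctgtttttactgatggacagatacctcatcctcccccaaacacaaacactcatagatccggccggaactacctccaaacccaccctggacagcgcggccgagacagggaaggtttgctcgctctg
Plxnc1: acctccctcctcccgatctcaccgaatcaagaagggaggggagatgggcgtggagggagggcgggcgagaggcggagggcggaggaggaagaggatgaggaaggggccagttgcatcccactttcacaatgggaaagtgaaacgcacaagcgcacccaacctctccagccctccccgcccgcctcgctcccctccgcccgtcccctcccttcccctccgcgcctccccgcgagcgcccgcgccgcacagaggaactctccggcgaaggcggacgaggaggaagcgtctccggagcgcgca
Robo1: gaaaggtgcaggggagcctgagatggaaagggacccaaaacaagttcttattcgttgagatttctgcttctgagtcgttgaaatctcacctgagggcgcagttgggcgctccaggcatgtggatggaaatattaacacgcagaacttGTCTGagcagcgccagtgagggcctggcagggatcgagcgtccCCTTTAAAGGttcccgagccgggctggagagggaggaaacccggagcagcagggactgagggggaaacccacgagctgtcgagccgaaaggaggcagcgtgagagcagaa

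*Sema3d* held 2 Smad elements, *Robo1* held 1 Smad element and 1 CArG box, and *Plxnc1* held none of the 3 motifs. Of all 32851 RefSeq promoters of this length, 49.6% held a Smad element, 14.7% a TEAD element and 1.63% a CArG box. Among 74 promoters of 58 members, 43 held a Smad element (58.1%), 8 a TEAD element (10.8%) and 2 a CArG box (2.70%). The motifs are short and a match is not a binding site.

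Levels were compared between genes as CPM per kilobase of exon, averaged over the 12 libraries. Ligands led the list. *Efna5*, a membrane-anchored ephrin-A, was the highest at 104, followed by the secreted *Sema3c* at 53.6 and *Sema3d* at 20.1, and by *Sema5a*, a transmembrane semaphorin, at 13.8. *Efnb2*, which marks arterial vessels, stood at 11.7, *Efna1* at 8.53 and *Sema3f* at 7.91. The highest receptors were *Epha3* at 7.10, *Unc5c* at 5.85 and *Nrp1* at 5.80, and *Ntn1* came next at 5.41. In all 27 of 71 members reached 1 CPM per kilobase: 6 semaphorins, 7 plexins and neuropilins, 4 ephrins, 4 Eph receptors, 5 netrins and their receptors and, among slits and Robo receptors, only *Slit3*. *Ntn5* and *Plxna4os3* had no count in any library, and *Sema4c* and *Plxnb3* were too low to be tested.

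**Figure D1:**
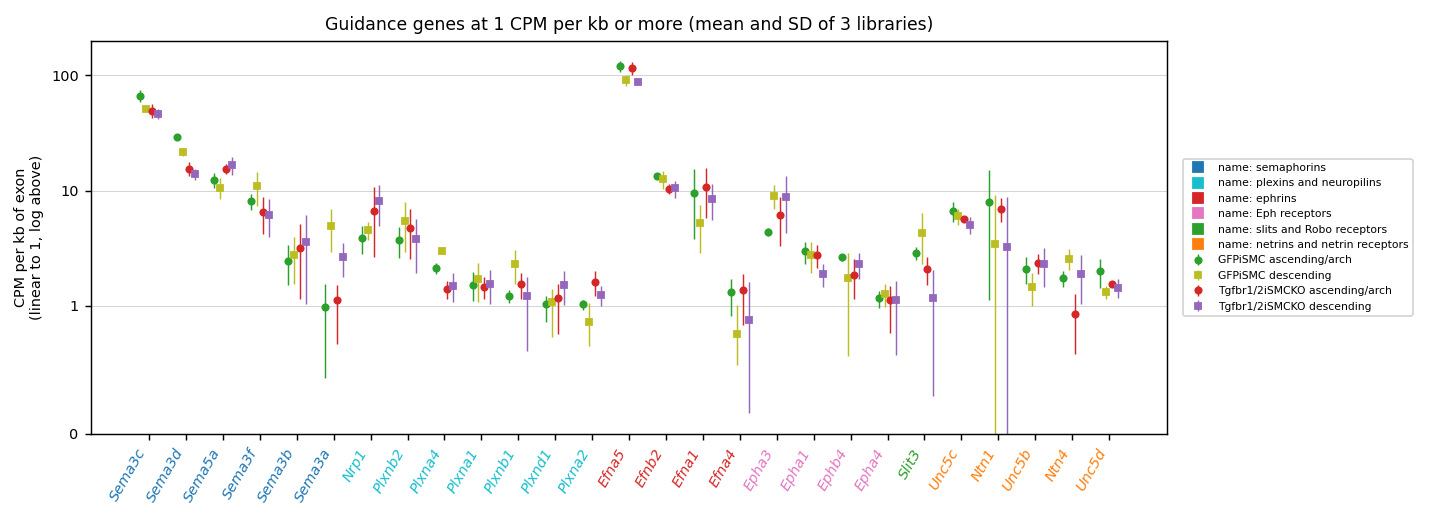
Level of the 27 members at 1 CPM per kilobase of exon or more. The vertical axis is CPM per kilobase, linear to 1 and logarithmic above; points are means of 3 libraries, bars are SD, marker colours are the 4 groups and name colours are the families. *Efna5* stood at 104 and *Sema3c* at 53.6 on average, above all receptors.

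Summed over families, semaphorins were at 123 ± 11.2 (SD, n = 3) CPM per kilobase in ascending/arch and 106 ± 6.86 in descending GFPiSMC SMCs, and at 94.5 ± 10.8 and 92.5 ± 8.02 in Tgfbr1/2iSMCKO. Ephrins were at 146 ± 19.7 and 113 ± 7.35 and at 141 ± 20.1 and 110 ± 6.75. Slits and Robo receptors were lowest, at 4.16 ± 0.221 and 5.04 ± 2.00 in GFPiSMC and at 3.16 ± 0.722 and 1.76 ± 0.753 in Tgfbr1/2iSMCKO.

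For the abundant class 3 semaphorins the receptor chains were present at lower levels. *Nrp1* binds *Sema3a*, *Sema3c* and *Sema3d*, and *Plxnd1*, which carries their signal in vessels, averaged 1.20 CPM per kilobase. *Nrp2*, the neuropilin preferred by *Sema3f*, averaged 0.259 and *Plxna3* 0.248. The plexins *Plxna4* (2.00), *Plxna1* (1.56) and *Plxna2* (1.20) were above *Plxna3*. *Plxnb3*, a receptor for *Sema5a*, was at most at 7 counts in a library. For *Efna5* and *Efna1* the EphA receptors beyond *Epha3* included *Epha1* at 2.60, *Epha4* at 1.17, *Epha7* at 0.903, *Epha2* at 0.208 and *Epha5* at 0.0540. Of the EphB receptors *Ephb4* was at 2.13, *Ephb6* at 0.590, *Ephb3* at 0.568, *Ephb1* at 0.210 and *Ephb2* at 0.139. The *Plxna4* ligands *Sema6a* (0.233) and *Sema6b* (0.0780) and the *Plxnc1* ligand *Sema7a* (0.0687) were low.

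The deletion of the receptors was compared with GFPiSMC over both segments first. Of 67 members tested, 3 passed an adjusted p of 0.05 in edgeR (quasi-likelihood test, segment in the model). *Sema3d* and *Plxna4* fell and *Plxnc1* rose. Over all 22320 genes tested 5.03% passed, 3.23% lower and 1.8% higher, and the share of members was near this background. Values of a difference are log2 fold changes with their SE after ±. The median log2 fold change of the 67 members was −0.08 and that of all genes 0.04. None of 14 Eph receptors, 8 ephrins, 7 slits and Robo receptors or 7 netrins and receptors tested passed, with 14 members in all at an unadjusted p under 0.05, against 16.1% of all genes. Some markers of other cells also differed by genotype: *Serpinf1* of fibroblasts (−1.58 ± 0.30, adjusted p = 0.00646), *Erg* (−1.13 ± 0.21, adjusted p = 0.00652) and *Cdh5* (2.97 ± 0.70, adjusted p = 0.0250) of endothelium, and *Actn2* of cardiomyocytes (−2.10 ± 0.30, adjusted p = 0.000769). Their part in the members' differences was not tested. The share of all genes that DESeq2 called was not counted, so its calls are given without a background. DESeq2 called 9 members over both segments. Beside the 3 above these were *Sema4d* (log2 fold change −1.40, adjusted p = 0.00521), *Plxna2* (0.57, 0.0177), *Sema5a* (0.48, 0.0263), *Slit2* (−0.74, 0.0269), *Slit3* (−1.16, 0.0282) and *Nrp1* (0.81, 0.0433).

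**Figure D2:**
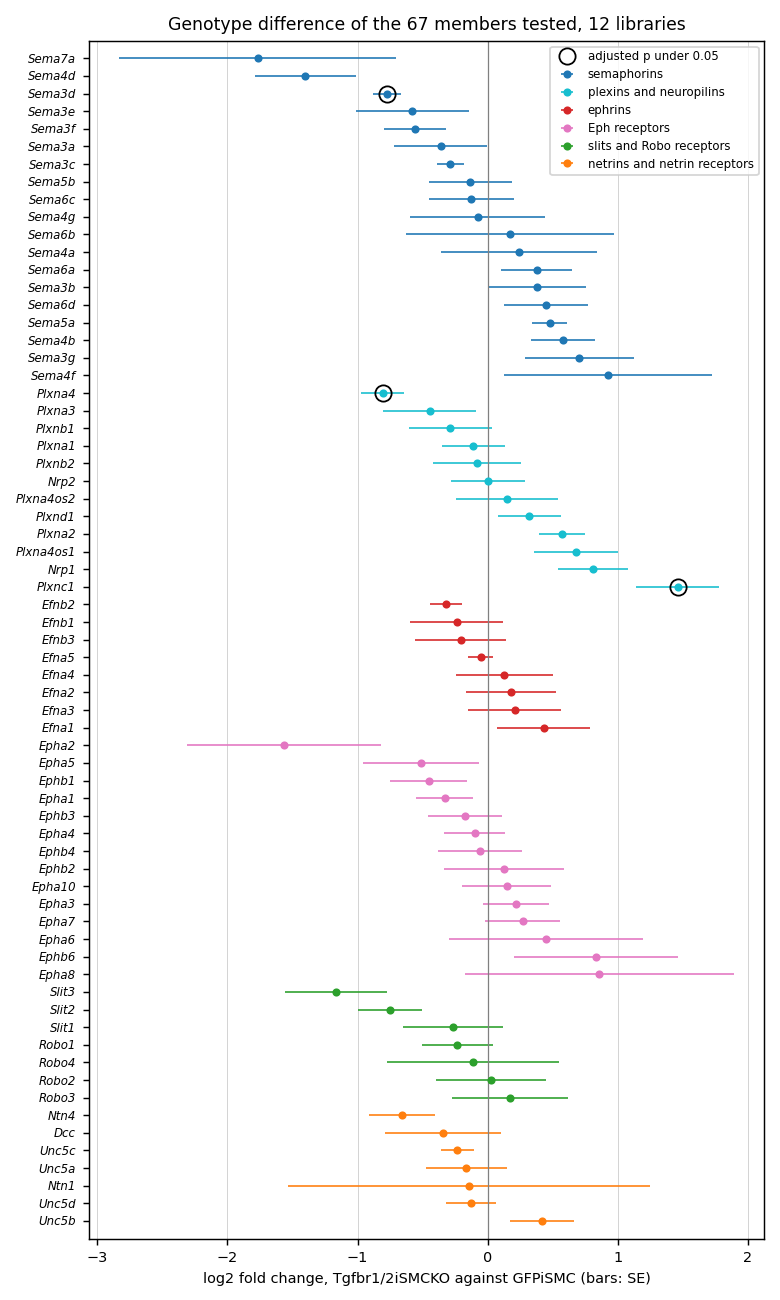
Genotype difference of the 67 members tested, by family. The horizontal axis is the log2 fold change of Tgfbr1/2iSMCKO against GFPiSMC over 12 libraries from edgeR, bars are the SE, and circles mark an adjusted p under 0.05. *Sema3d* (−0.77), *Plxna4* (−0.81) and *Plxnc1* (1.46) are circled.

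*Sema3d* (ENSMUSG00000040254.11, chr5:12383385-12588948), a secreted semaphorin that acts through neuropilins and *Plxnd1*, fell. In ascending/arch SMCs it was at 259, 261 and 235 CPM in GFPiSMC and at 139, 113 and 149 CPM in Tgfbr1/2iSMCKO animals 1 to 3. In descending SMCs it was at 170, 192 and 192 CPM and at 105, 122 and 131 CPM. All 6 Tgfbr1/2iSMCKO libraries lay below all 6 GFPiSMC libraries, which held in the same direction for 2.89% of all genes tested and for no other member. No member had all Tgfbr1/2iSMCKO libraries above all GFPiSMC libraries, against 1.51% of all genes. The log2 fold change over both segments was −0.77 ± 0.11 (adjusted p = 0.000693). It passed in every one of 18 alternatives, with a range of −0.93 to −0.65 and adjusted p up to 0.0309, which was reached with both libraries of an animal summed.

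Within ascending/arch *Sema3d* was the single member that passed, with a log2 fold change of −0.91 ± 0.15 (adjusted p = 0.00845), against 1.41% of all genes, and 6 were at an unadjusted p under 0.05 (11.4% of all genes). The groups did not overlap for 6 members that were lower (10.1% of all genes) and 2 that were higher (8.87%). In descending SMCs its value was −0.63 ± 0.15 (adjusted p = 0.0586). The 2 differences were not distinguished by the interaction test (0.28 ± 0.21, unadjusted p = 0.204). The ascending call was lost when GFPiSMC animal 1 or 2 or Tgfbr1/2iSMCKO animal 1 or 2 was left out, with adjusted p of 0.0952, 0.0759, 0.0545 and 0.0507. In GFPiSMC mice the gene was lower in the descending than in the ascending/arch library of each animal, and the segment difference of −0.45 ± 0.15 had an adjusted p of 0.546.

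*Plxna4* (ENSMUSG00000029765.12, chr6:32144268-32588192), a plexin that transmits class 3 semaphorin signals with *Nrp1*, also fell. It was at 27.0, 33.7 and 29.8 CPM in GFPiSMC and at 23.6, 18.1 and 17.1 CPM in Tgfbr1/2iSMCKO ascending/arch SMCs. Descending SMCs had 44.0, 41.8 and 40.5 CPM and 16.8, 28.0 and 18.6 CPM. The groups did not overlap within either segment, and 5 of 6 Tgfbr1/2iSMCKO libraries were below all GFPiSMC libraries. Over both segments the log2 fold change was −0.81 ± 0.17 (adjusted p = 0.0108), and it was −0.62 ± 0.23 (adjusted p = 0.310) in ascending/arch and −0.99 ± 0.23 (adjusted p = 0.0584) in descending SMCs. With both libraries of an animal summed the adjusted p was 0.0744, and without GFPiSMC animal 2, GFPiSMC animal 3 or Tgfbr1/2iSMCKO animal 3 it was 0.0669, 0.0529 and 0.0526. Without the 4 libraries of at most 12000 sorted cells it was 0.190, at a log2 fold change of −0.66. The antisense gene *Plxna4os3* overlaps exons of *Plxna4* and had no counts. The kit does not mark strand, so reads in the overlap cannot be assigned to either gene by strand.

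*Plxnc1* (ENSMUSG00000074785.5, chr10:94790866-94944835), the plexin that binds *Sema7a*, rose from a low level. It was at 0.770, 1.75 and 2.11 CPM in GFPiSMC and at 5.04, 2.62 and 5.06 CPM in Tgfbr1/2iSMCKO ascending/arch SMCs. In descending SMCs it was at 0.806, 0.946 and 1.49 CPM and at 3.85, 3.01 and 2.06 CPM. The groups were apart within each segment, and 5 of 6 Tgfbr1/2iSMCKO libraries were above every GFPiSMC library. The log2 fold change over both segments was 1.46 ± 0.32 (adjusted p = 0.0152), the same in ascending/arch (1.46 ± 0.46, adjusted p = 0.197) and descending SMCs (1.46 ± 0.47, adjusted p = 0.203). The counts were 21 to 157 per library. *Gm48718* overlaps exons of *Plxnc1* on the same strand and averaged 4.42 counts, against 66.1 for *Plxnc1*. Its part in the difference was not tested. With both libraries of an animal summed the adjusted p was 0.116, without GFPiSMC animal 1, GFPiSMC animal 2 or Tgfbr1/2iSMCKO animal 1 it was 0.0823, 0.0776 and 0.106, and without the 4 libraries of fewest cells it was 0.166. *Plxnc1* is also expressed by leukocytes, whose 7 markers summed to 5.61 to 11.5 CPM in GFPiSMC and to 7.12 to 17.8 CPM in Tgfbr1/2iSMCKO libraries, none of the 5 tested passing. Their part in the *Plxnc1* difference was not tested.

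**Figure D3:**
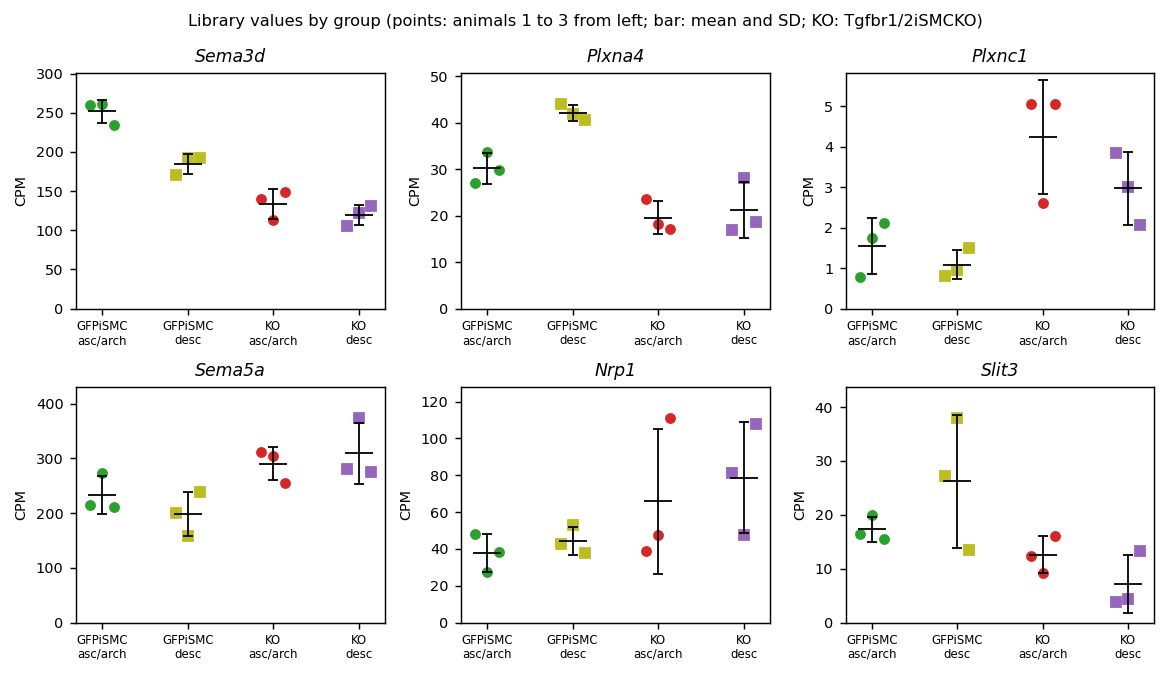
Level of 6 members in every library. The vertical axes are CPM, points are the libraries of animals 1 to 3 from left to right in the 4 groups, and bars are mean and SD. *Sema3d* runs from 105 to 149 CPM in the 6 Tgfbr1/2iSMCKO libraries, below the 170 to 261 CPM of GFPiSMC, while *Nrp1* and *Slit3* overlap between genotypes.

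Several other ligands and receptors of these families did not pass. *Sema4d*, a semaphorin best known from lymphocytes, was low at 5 to 52 counts, 1.03 to 1.84 CPM in GFPiSMC and 0.207 to 1.31 CPM in Tgfbr1/2iSMCKO (−1.40 ± 0.39, adjusted p = 0.0574, and −1.75 with 0.0333 without Tgfbr1/2iSMCKO animal 2). *Sema5a* was at 215, 273 and 211 CPM and 201, 158 and 238 CPM in GFPiSMC (ascending/arch, then descending). In Tgfbr1/2iSMCKO SMCs it was at 311, 305 and 256 CPM and 280, 374 and 274 CPM. Its log2 fold change over both segments was 0.48 ± 0.13 (adjusted p = 0.0611), with 5 of 6 Tgfbr1/2iSMCKO libraries above all GFPiSMC libraries. *Plxna2* had a log2 fold change of 0.57 ± 0.18 (adjusted p = 0.0934). *Sema3c* was 434 to 546 CPM and 358 to 379 CPM in GFPiSMC and 327 to 407 CPM and 299.7 to 368 CPM in Tgfbr1/2iSMCKO, with a value of −0.29 ± 0.10 (adjusted p = 0.165). *Efnb2* gave −0.32 ± 0.12 (adjusted p = 0.186), *Sema3f* −0.56 ± 0.24 (adjusted p = 0.252, and −0.88 with 0.0441 without Tgfbr1/2iSMCKO animal 3), *Plxnd1* 0.32 ± 0.24 (adjusted p = 0.626), *Efna5* −0.05 ± 0.09 (adjusted p = 0.884) and *Unc5c* −0.23 ± 0.13 (adjusted p = 0.421).

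*Nrp1*, the shared co-receptor, was unevenly distributed. It was at 48.2, 27.5 and 38.3 CPM in GFPiSMC ascending/arch and at 42.9, 52.8 and 37.6 CPM in descending SMCs. Tgfbr1/2iSMCKO animals 1 and 2 had 38.6 and 47.6 CPM in ascending/arch and 81.2 and 47.4 CPM in descending SMCs. Animal 3 had 111 and 108 CPM, the highest 2 of all 12 values. The difference over both segments was 0.81 ± 0.27 (adjusted p = 0.120), and without that animal it was 0.35 with an adjusted p of 0.486. Both libraries of animal 3 came from at most 12000 sorted cells and had 2.39% and 2.49% mitochondrial counts, against 2.99% to 4.98% in the other 10. *Sema3b* and *Ephb6* also had their highest 2 values in those libraries. These 3 of 67 members compare with 9.21% of all genes.

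Among slits and Robo receptors no member passed for genotype. *Slit3* was at 16.5, 19.9 and 15.6 CPM in GFPiSMC and at 12.3, 9.27 and 16.1 CPM in Tgfbr1/2iSMCKO ascending/arch SMCs, and descending SMCs had 27.3, 38.0 and 13.4 CPM and 3.73, 4.37 and 13.3 CPM. Its log2 fold change was −1.17 ± 0.39 (adjusted p = 0.124) over both segments and −1.88 ± 0.49 (adjusted p = 0.0963) in descending SMCs. *Slit2* was at 6.67 to 10.1 CPM in GFPiSMC and at 2.43 to 7.45 CPM in Tgfbr1/2iSMCKO libraries (−0.75 ± 0.25, adjusted p = 0.114). *Slit1* stayed at or below 1.72 CPM.

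*Robo1* (ENSMUSG00000022883.10), a receptor for slits, was lower in descending than in ascending/arch SMCs in both genotypes. It was at 10.1, 6.63 and 8.06 CPM in ascending/arch and at 2.42, 1.58 and 1.08 CPM in descending libraries of GFPiSMC animals 1 to 3. In Tgfbr1/2iSMCKO animals it was at 7.72, 6.31 and 9.41 CPM and at 0.704, 1.77 and 1.35 CPM. The lowest ascending/arch library was at 6.31 CPM and the highest descending library at 2.42 CPM, and the descending value was the lower one in 6 of 6 animals. The log2 difference, descending against ascending/arch, was −2.28 ± 0.41 (adjusted p = 0.0359) in GFPiSMC, where 1 of 67 members and 0.376% of all genes passed and 13 members and 5.98% of all genes had an unadjusted p under 0.05. It was −2.61 ± 0.42 (adjusted p = 0.0362) in Tgfbr1/2iSMCKO, where 1 member and 0.112% of all genes passed, with 5 members and 3.68% of all genes at an unadjusted p under 0.05. It was −2.44 ± 0.28 (adjusted p = 0.000709) over both genotypes, a comparison added after the values were seen, in which 2 of 67 members and 0.797% of all genes passed, 1 lower (0.578%) and 1 higher (0.22%). Without overlap between segments 2 members were lower (0.6% of all genes) and 1 higher (0.211%). With the animal as a block the adjusted p was 0.0774 in GFPiSMC and 0.101 in Tgfbr1/2iSMCKO. Leaving out 1 animal moved it to 0.0469 to 0.296 and to 0.0856 to 0.421, while over both genotypes it stayed at or below 0.00726 in each of 6 such fits and was 0.00853 with the animal as a block. The genotype difference of *Robo1* was −0.23 ± 0.27 (adjusted p = 0.790), and −0.33 ± 0.56 (unadjusted p = 0.566) between segments. Some fibroblast markers moved with it. *Lum* was lower in descending SMCs (−4.30 ± 0.44, adjusted p = 0.000344), as was *Dcn* (−2.30 ± 0.48, adjusted p = 0.0418), 3 of 7 markers in that list falling with *Cd34*. *Serpinf1* of the same list did not pass, and its mean was higher in descending SMCs. That mean was 33.1 against 15.1 CPM in GFPiSMC and 8.82 against 6.34 CPM in Tgfbr1/2iSMCKO. The cardiomyocyte marker *Tnnt2* was lower in descending SMCs (−1.77 ± 0.37, adjusted p = 0.0424), 1 of 4 in its list. Their part in the *Robo1* difference was not tested, and fewer cells of a type and less RNA per cell cannot be told apart.

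*Sema3a* and *Sema3e* ran the other way along the aorta. *Sema3a*, the founding repulsive semaphorin and a ligand of *Nrp1* with *Plxna4*, was at 20.8, 5.66 and 14.7 CPM in ascending/arch and at 65.8, 96.5 and 42.0 CPM in descending GFPiSMC libraries. In Tgfbr1/2iSMCKO animals it was at 8.99, 17.7 and 19.8 CPM and at 44.4, 22.7 and 43.2 CPM. All 6 descending libraries, at 22.7 to 96.5 CPM, were above all 6 ascending/arch libraries, at 5.66 to 20.8 CPM. The log2 difference was 2.31 ± 0.49 (adjusted p = 0.0905) in GFPiSMC, 1.25 ± 0.48 (unadjusted p = 0.0220) in Tgfbr1/2iSMCKO and 1.78 ± 0.36 (adjusted p = 0.0392) over both, where with *Robo1* it was the second member that passed. The highest 2 libraries, GFPiSMC descending 1 and 2, were among those of at most 12000 sorted cells. Without the 4 libraries of that kind the difference over both genotypes was 1.46 with an adjusted p of 0.442, with the number of sorted cells as a covariate it was 1.51 with an adjusted p of 0.000938, with the animal as a block the adjusted p was 0.141, and without 1 animal it ranged from 0.0383 to 0.195. *Sema3e*, a ligand that binds *Plxnd1* without a neuropilin and was named after its values were seen, was at 2.82, 3.60 and 2.27 CPM in ascending/arch and at 14.4, 20.2 and 8.72 CPM in descending GFPiSMC libraries. In Tgfbr1/2iSMCKO it was at 2.16, 4.51 and 4.77 CPM and at 2.32, 4.70 and 8.06 CPM. The difference in GFPiSMC was 2.31 ± 0.49 (adjusted p = 0.0910) and that in Tgfbr1/2iSMCKO 0.40 ± 0.47, and the interaction of −1.91 ± 0.67 (unadjusted p = 0.0146) had an adjusted p of 1.00. With the animal as a block *Sema3e* passed in GFPiSMC (2.26, adjusted p = 0.0261) and over both genotypes (1.29, adjusted p = 0.0384). In GFPiSMC it passed in 3 of 15 alternatives, with adjusted p up to 0.696 in the others. Over both genotypes the block was the only 1 of 16 alternatives in which it passed, with adjusted p up to 0.9999.

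**Figure D4:**
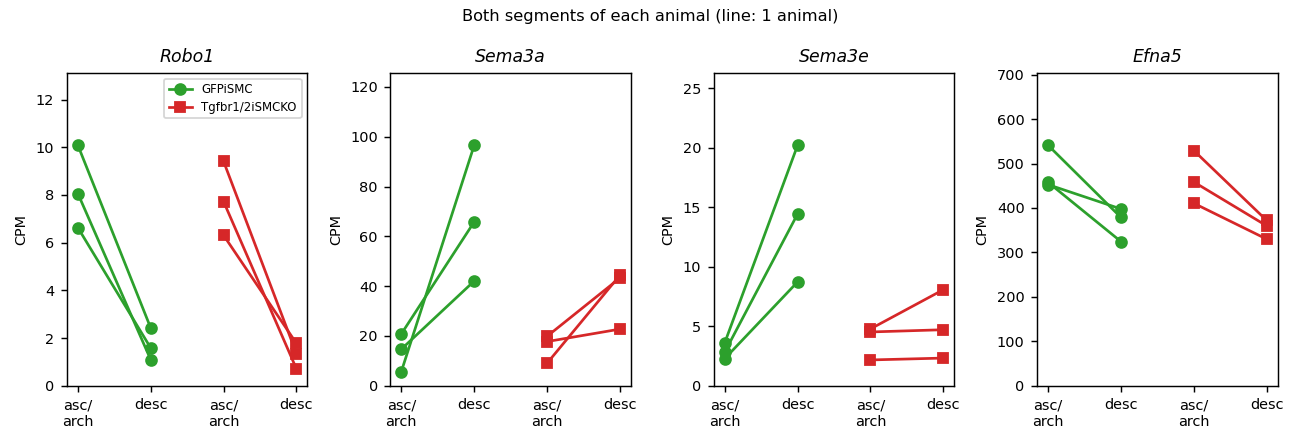
Both segments of each animal for *Robo1*, *Sema3a*, *Sema3e* and *Efna5*. The vertical axes are CPM, each line joins the ascending/arch and descending libraries of 1 animal, and colours are genotypes. *Robo1* and *Efna5* are lower and *Sema3a* and *Sema3e* higher in the descending library of all 6 animals. The share of all genes with such a pattern was not counted.

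*Efna5*, the most abundant member, was lower in the descending library of each of 6 animals, 324 to 398 CPM against 411 to 541 CPM. The log2 difference was −0.40 ± 0.09 (adjusted p = 0.0981) over both genotypes. It passed with DESeq2 (adjusted p = 0.0129), limma-voom allowing for correlated libraries of an animal (0.0298), genes of at least 50 counts on average (0.0286) and the number of sorted cells as a covariate (0.00828). *Epha3*, a receptor for it, was higher in 6 of 6 descending libraries of an animal (0.79 ± 0.25, adjusted p = 0.393, and 0.77 with an adjusted p of 0.0302 with the animal as a block), at 36.2 to 41.6 CPM in ascending/arch and 64.4 to 99.3 CPM in descending GFPiSMC SMCs. In Tgfbr1/2iSMCKO animal 3 it was at 80.7 and 122 CPM, the highest of its genotype in each segment. The genotype difference of *Epha3* was 0.22 ± 0.25 (adjusted p = 0.792), and *Efna1* gave 0.43 ± 0.36 (adjusted p = 0.670), with 0.13 to 0.89 when 1 animal was left out. *Epha1*, *Efna4*, *Nrp2* and *Slit1* were also lower, and *Ntn4* higher, in the descending library of all 6 animals. *Efna4* and *Ntn4* were named after their values were seen. The share of all genes with the same direction in 6 of 6 animals was not counted.

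The difference of the genotype effect between segments passed for no member and for 0% of all genes in edgeR's test, with 3 of 67 members (2.95% of all genes) at an unadjusted p under 0.05, namely *Sema3e*, *Plxnb1* and *Sema4g*. DESeq2 called no member either. In descending SMCs the genotype difference passed for no member in edgeR (1.72% of all genes), with 11 at an unadjusted p under 0.05 (10.7% of all genes). DESeq2 called 6 members there, and its share of all genes was not counted. The groups did not overlap for 7 members that were lower (7.75% of all genes) and 7 that were higher (7.19%).

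*Sema3d*, *Sema3a*, *Sema3e* and *Sema3c* lie in this order on the plus strand of chromosome 5, between 12383385 and 17730268 (GRCm38). The gap from *Sema3d* to *Sema3a* was 536 kb, that to *Sema3e* 423 kb and that to *Sema3c* 3.32 Mb. Among 30 other genes tested in this interval, 2 passed for the genotype effect over both segments (*Cacna2d1* and *Speer4cos*) and none for the segment effect within either genotype or over both.

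*Ntn1*, the ligand of *Unc5c*, was present in 7 libraries and close to absent in 5. It was at 77.8, 0.343 and 73.3 CPM in ascending/arch and at 0.0767, 1.05 and 63.1 CPM in descending GFPiSMC libraries, and at 45.1, 32.8 and 53.4 CPM and at 0.0414, 0.0825 and 60.6 CPM in Tgfbr1/2iSMCKO. The 5 low libraries had 1 to 30 counts and the 7 others 675 to 2123 counts. Low libraries occurred in both genotypes and both segments, and in 3 of 6 animals the ascending/arch library was high and the descending library low. *Stx8*, a neighbouring gene 2215 bases away, had 981 to 1426 counts in all 12 libraries. Of 6749 genes with a mean of at least 20 CPM, 34 (0.504%) had a lowest library under 1% of the highest, and *Ntn1* was the only one of 14 members at that level.

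**Figure D5:**
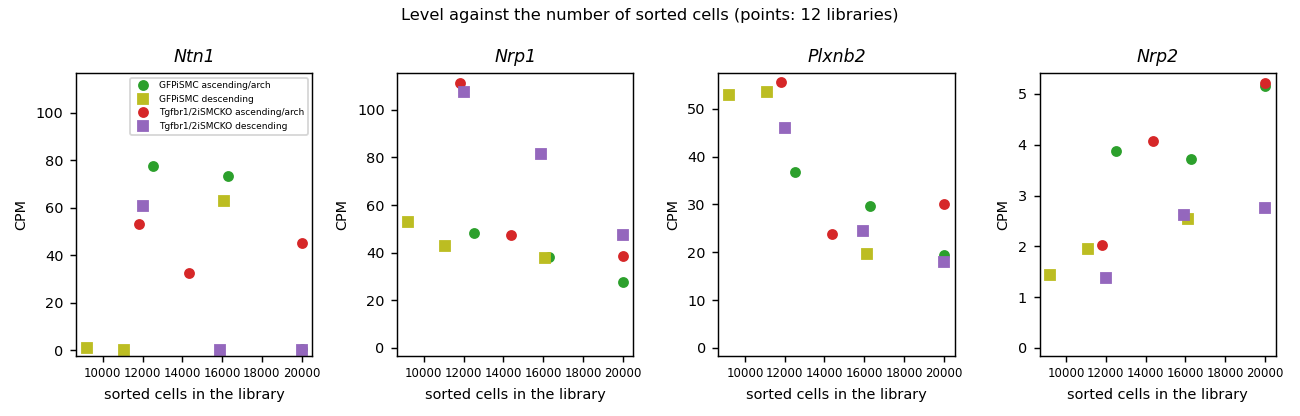
*Ntn1*, *Nrp1*, *Plxnb2* and *Nrp2* against the number of sorted cells. Vertical axes are CPM, horizontal axes are sorted cells, points are the 12 libraries and markers are the 4 groups. *Ntn1* is at 32.8 CPM or more in 7 libraries and near 0 in 5, *Plxnb2* is highest and *Nrp2* lowest in the 4 libraries of at most 12000 sorted cells.

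The number of sorted cells moved with some receptors, and *Plxnb1* and *Plxnb2*, like *Sema3b*, *Ephb6*, *Sema4d* and *Sema4g*, were named after their values were seen. The part of cell number in the results was not tested beyond the fits given here, which were chosen after seeing the data. In the 4 libraries of at most 12000 cells *Plxnb2* was at 45.9 to 55.6 CPM against 18.0 to 36.8 CPM in the other 8, and *Plxnb1* was at 14.7 to 28.4 CPM against 5.40 to 14.6 CPM. *Nrp2* was at 1.38 to 2.03 CPM against 2.53 to 5.22 CPM. These 3 of 67 members separated the libraries without overlap, 2 of them higher and 1 lower, against 5.74% and 3.1% of all genes. In neither direction did the share of members exceed that of all genes. For the covariate fit and the fit without the 4 libraries the share of all genes was not counted. With the number of cells as a covariate, 9 members passed for the genotype effect over both segments. These were *Sema3d*, *Plxna4*, *Plxnc1*, *Nrp1* (log2 fold change 0.92, adjusted p = 0.00554), *Sema5a* (0.40, 0.00576), *Plxna2* (0.61, 0.0242), *Efnb2* (−0.37, 0.0300), *Sema4d* (−1.41, 0.0387) and *Slit3* (−0.99, 0.0455). Without these libraries 1 member passed, *Sema3d* (−0.93, adjusted p = 0.00436).

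Genes that act beside these families were counted from 4 lists of signalling partners, in which 4 of 65 genes passed over both segments, 3 lower and 1 higher (5.03% of all genes). *Dpysl2*, the collapsin response mediator that carries semaphorin signals to microtubules, rose from 430 to 556 CPM in GFPiSMC to 584 to 675 CPM in Tgfbr1/2iSMCKO (log2 fold change 0.39 ± 0.08, adjusted p = 0.0112), the only one of 20 semaphorin partners. It passed in 13 of 18 alternatives, and not with counts summed per animal (adjusted p = 0.138), without the 4 libraries of fewest cells (0.146), or without GFPiSMC animal 1 (0.0922), GFPiSMC animal 3 (0.0794) or Tgfbr1/2iSMCKO animal 1 (0.0681). In the list of 15 netrin partners and repulsive guidance molecules 3 fell. These were *Flrt2*, an adhesion protein that binds Unc5 receptors (−1.07 ± 0.21, adjusted p = 0.00704), *Siah2*, a ubiquitin ligase (−0.94 ± 0.23, adjusted p = 0.0292), and *Trio*, a guanine nucleotide exchange factor (−0.51 ± 0.13, adjusted p = 0.0446). *Flrt2* was at 9.78 to 16.1 CPM in GFPiSMC and at 4.45 to 8.47 CPM in Tgfbr1/2iSMCKO libraries, which did not overlap. In this list 2 of 15 genes were lower without overlap, against 2.89% of all genes. The other was *Neo1*, at 122 to 132 CPM in GFPiSMC and 56.9 to 119 CPM in Tgfbr1/2iSMCKO libraries. *Neo1* did not pass and was named after its values were seen. *Flrt2* passed in 15 of 18 alternatives, and not with counts summed per animal (adjusted p = 0.112) or without GFPiSMC animal 1 (0.0573) or Tgfbr1/2iSMCKO animal 1 (0.0507). *Siah2* passed in 9 of 18 and *Trio* in 6 of 18, each in 1 of the 6 fits without an animal, that without Tgfbr1/2iSMCKO animal 2. In the other 5 such fits the adjusted p was 0.0737 to 0.149 for *Siah2* and 0.0813 to 0.182 for *Trio*, and with counts summed per animal it was 0.202 and 0.218. No gene of 18 ephrin partners or 12 Slit-Robo partners passed.

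Enabled (*Enah*), a regulator of actin filaments in the Slit-Robo list, was named after its values were seen. It was at 335, 193 and 151 CPM in ascending/arch and at 700, 633 and 669 CPM in descending GFPiSMC libraries. In Tgfbr1/2iSMCKO it was at 241, 276 and 225 CPM and at 235, 284 and 203 CPM. In descending SMCs the genotype difference was −1.47 ± 0.25 (adjusted p = 0.00889), and in GFPiSMC the segment difference was 1.56 ± 0.25 (adjusted p = 0.0183). The difference between segments, −1.60 ± 0.35 (unadjusted p = 0.000566), had an adjusted p of 1.00. *Flrt3*, also named after its values were seen, was lower in descending SMCs of GFPiSMC (−3.63 ± 0.58, adjusted p = 0.0183) and of Tgfbr1/2iSMCKO (−4.06 ± 0.60, adjusted p = 0.0247).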

How the data were processed

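Deposited counts per gene were used as they stand. Per the study, the authors used Trim Galore 0.5.0 for trimming and HISAT2 2.1.0 for alignment (GRCm38, mm10), and assembled and quantified genes with StringTie 1.3.3b on GENCODE M15, and the step from coverage to whole-number counts is not given in the sources used here. Count 2 was more common (32279) than count 1 (22574) over gene and library pairs. The kit does not mark strand, so a gene and its antisense partner cannot be told apart. Groups are genotype and segment as labelled, and equal numbers within a genotype are 1 animal (correlation of deviations −0.245 to 0.184 in GFPiSMC, 0.0565 to 0.665 in Tgfbr1/2iSMCKO).

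Genes were tested with edgeR 4.0.16 (quasi-likelihood F test, filterByExpr on the 4 groups, TMM factors, Benjamini-Hochberg over 22320 genes, adjusted p under 0.05) in R 4.3.3. The fit over both segments used segment as a covariate, the others 4 group means. CPM are TMM scaled, CPM per kilobase divides by the exon length of GENCODE. Fits treat the 2 libraries of an animal as separate and p-values measure the spread between 3 mice a group at best. Depth was 20467027 to 31392396 counts. Alternatives were DESeq2 1.42.0, limma 3.58.1, other scalings and filters, halved counts, summed animals and animals left out, and the number of sorted cells added after the data were seen. Simulated counts with known changes were used to test the scripts. Promoters are from RefSeq (GRCm38.p6), with 58 of 71 members matched, and names and coordinates from GENCODE, for 52403 of 52636 genes. Members named are those that passed, the 10 highest per kilobase, and their partners. The members and lists were chosen with earlier results of these data known.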

Additional observations from a re-analysis of the deposited data

How the results depend on the processing

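*Sema3d* passed over both segments under all 18 alternatives and *Robo1* over both genotypes under all 16. Other calls moved with the processing, and the cause was not tested. The share of all genes was counted for the main edgeR fit only, so counts under the alternatives have no background beside them. Of 67 members 3 passed for the genotype effect over both segments. DESeq2 called 9, the fit on library size alone 5, the number of sorted cells as covariate 9, counts summed per animal 1 and the fit without the 4 libraries of at most 12000 sorted cells 1, and leaving out an animal gave 1 to 5. In ascending/arch (1) DESeq2 called 2 and leaving out an animal 0 to 1. In descending SMCs (0) DESeq2 called 6, limma-voom 1, the covariate 4, and leaving out an animal 0 to 1. For the segment effect in GFPiSMC (1) DESeq2 called 3, limma-voom 3, no filter 2, a mean of at least 50 counts 2, the covariate 2, and leaving out an animal 0 to 1. In Tgfbr1/2iSMCKO (1) leaving out an animal gave 0. Over both genotypes (2) DESeq2, limma-voom, a mean of at least 50 counts and the covariate each called 3 (*Robo1*, *Sema3a*, *Efna5*), the fit without the 4 libraries 1, and leaving out an animal 1 to 2. The difference between segments was 0 throughout. Scaling by library size alone moved the median of all genes from 0.04 to 0.16. *Efna5* turned positive under it (0.0737) and ranged from −0.13 to 0.0159 with an animal left out, and *Epha3* turned negative without the 4 libraries (−0.15) and ranged from −0.26 to 0.43 with an animal left out.

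Replicate numbers are shared by the genotypes, and deviations of same-numbered libraries correlated at −0.200, 0.214 and 0.0208 in ascending/arch SMCs. In descending SMCs they correlated at 0.0228, −0.462 and −0.512. Libraries of 1 animal correlated at −0.245 to 0.665, so these values cannot decide whether the numbers pair samples across genotypes. With the number as a replicate block 3 members passed over both segments, 0 in ascending/arch (*Sema3d* adjusted p = 0.123) and 0 in descending SMCs. Within a genotype the number is the animal, and that block gave 1 member in GFPiSMC (*Sema3e*, not *Robo1*), 0 in Tgfbr1/2iSMCKO and 3 over both. *Plxnc1*, *Robo1* and *Sema4d* had 5 to 292 counts a library. With all counts divided by 2, *Plxnc1* (adjusted p = 0.0138) and *Robo1* (0.0239 in GFPiSMC) still passed and *Sema4d* did so too (0.0495).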
